A study of Mus musculus with 12 samples.

Results

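The genes Cd9, Cd53, Cd81 and Cd82 encode tetraspanins and were followed in hippocampal microglia at postnatal day 28 (P28) and postnatal day 14 (P14). They were taken by their symbols in the deposited table of raw counts, which held 545 immune genes, and all 4 were present in it with values in all 12 samples. Microglia are the macrophages that live in brain tissue; here they were isolated from control male Balbc mice with a Percoll gradient and flow sorting, from 6 pups at P28 and 6 pups at P14, each from a different litter. All pups were raised under control conditions, and the study asks how early life stress disturbs the maturation of these cells; stressed animals were not analysed here. The sort was labelled as microglia, with no gating markers named. Barcodes bound to the RNA were counted with the mouse immune panel of the nCounter system after 5 rounds of PCR, whose copies are not independent molecules, so counting statistics understate the error of each value.

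Tetraspanins are small membrane proteins that cross the membrane repeatedly and gather integrins, immune receptors and one another into patches of the cell surface called tetraspanin-enriched microdomains. CD9 and CD81 are closely related, are abundant on extracellular vesicles and restrain the fusion of macrophages in mice. CD53 is largely restricted to leukocytes, and CD82, also known as Kai1, is known as a suppressor of metastasis. CD9 and CD81 are also made by glia and endothelial cells, so neither marks microglia alone.

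All 4 genes lay well above background in every sample. The threshold of a lane was the mean of its negative-control probes plus 2 SD, and a gene above it in 40% or more of the samples was called present, as were 366 of the 545 genes. The lowest multiple of that lane threshold in any sample was 29.1 for Cd9, 42.5 for Cd53, 42.1 for Cd82 and 2080.0 for Cd81. The largest relative counting error in any sample was 5.16% for Cd9, 3.63% for Cd53, 0.539% for Cd81 and 4.29% for Cd82, below the spread between animals. Capture and amplification differ between probes, so no level of one tetraspanin is set against that of another; only changes of their ratios are. Levels are raw counts scaled to 6 reference genes (Alas1, Gapdh, Oaz1, Polr1b, Sdha and Tbp), and fold changes are P28 over P14 from edgeR's quasi-likelihood test with its SE, with Benjamini-Hochberg adjusted p-values over the 366 genes. In bulk RNA, fewer cells of a type and less RNA per cell cannot be told apart.

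Totals over the 545 genes lay between 1025196 and 1534665 at P28 and between 356398 and 1316430 at P14. P14 samples 4 and 5 had the lowest totals of all and stood apart on the second principal component of the log2 scaled counts, at 5.30 and 9.16 against -6.83 to -3.26 in the other P14 samples and -0.28 to 2.41 at P28. Results are therefore given with and without them. The geometric mean of the positive-control probes was 1167 ± 63.5 at P28 and 603 ± 51.5 at P14 (SD, n = 6 each), with no overlap between the ages, so lanes and ages cannot be told apart on that scale. The threshold was an FDR of 0.05, which 112 of the 366 genes (30.6%) passed: 61 (16.7%) were higher at P28 and 51 (13.9%) were lower. That split was 93 to 36 with the authors' factors, 89 to 42 with all 14 reference genes, 89 to 26 with limma on the authors' values, 50 to 74 without Polr1b, 51 to 96 with total counts, 8 to 127 with positive controls alone and 68 to 90 without P14 samples 4 and 5.

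Among the tetraspanins, 2 of 4 passed that threshold, in opposite directions, against 30.6% of all genes tested: Cd9 rose (but was at -0.25 with positive controls alone), as did 16.7% of all genes, and Cd53 fell, as did 13.9%. Cd81 and Cd82 did not pass. Cd9 alone had no overlap between the ages, a pattern seen in 20.8% of the 366 genes. Over all 12 samples, the 4 genes varied more at P14 than at P28. The SD on the log2 scale lay between 0.12 for Cd53 and 0.31 for Cd82 at P28, and between 0.33 for Cd81 and 0.69 for Cd82 at P14. For Cd9 it was 0.17 at P28 and 0.38 at P14. Without P14 samples 4 and 5, the SD in scaled counts was lower at P14 than at P28 for Cd9 (157 against 254) and Cd81 (7800 against 15010). The same held for Cd82 (573 against 650), while Cd53 still varied more at P14 (323.5 against 105.3). The difference in spread was not tested.

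**Figure D1:**
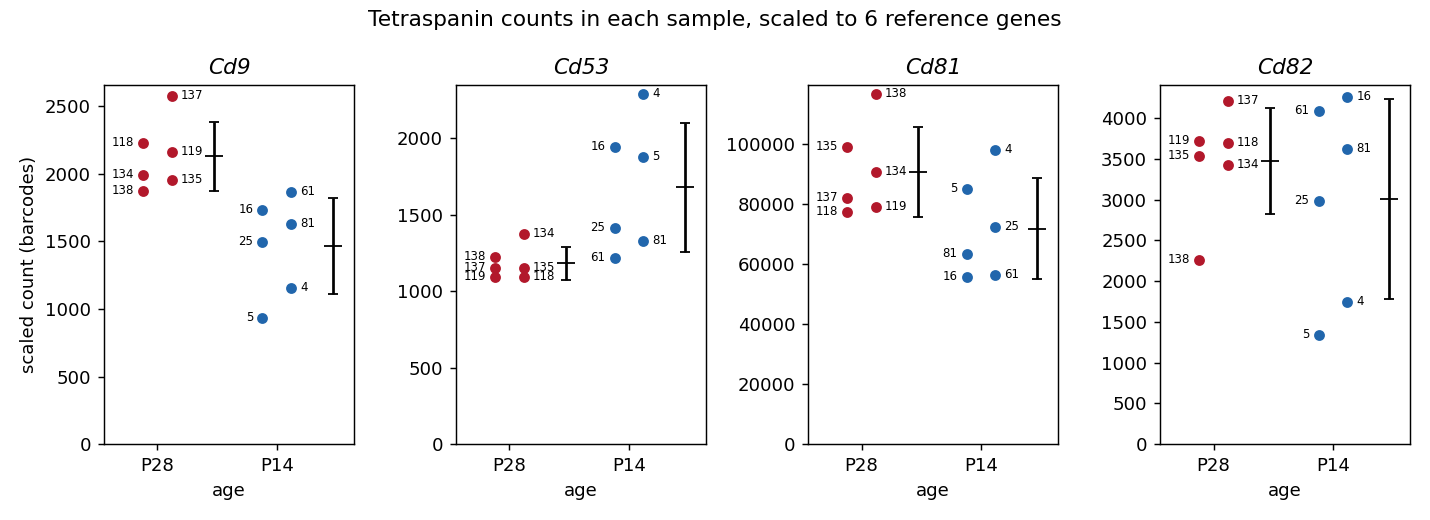
Scaled counts of Cd9, Cd53, Cd81 and Cd82 (vertical axes, barcodes, from 0) in each sample at P28 (red) and P14 (blue), with the sample number beside each point and the mean and SD of 6 samples as a black bar. For Cd9, the lowest P28 sample (1869) lies just above the highest P14 sample (1863); Cd82 is lowest in P14 samples 5 and 4 and P28 sample 138.

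Cd9, which binds integrins and the scavenger receptor CD36 in macrophages, ranged from 1869 to 2572 scaled counts at P28 with a median of 2073, against 929.9 to 1863 at P14 with a median of 1559. The 6 samples of each age did not overlap, but the gap was narrow, between P28 sample 138 (1869) and P14 sample 61 (1863). P14 samples 5 and 4 were the lowest of all, at 929.9 and 1155. Cd9 averaged 2128 ± 254 at P28 and 1465 ± 357 at P14 (SD, n = 6 each) and rose by 0.54 ± 0.16 on the log2 scale, which is 1.45-fold (adjusted p = 0.0183, edgeR). Without P14 samples 4 and 5 the rise was smaller, 0.34 ± 0.10, and still passed (adjusted p = 0.0188). The call was lost without Polr1b among the reference genes (0.41, adjusted p = 0.0621). With positive controls alone Cd9 was at -0.25 ± 0.37, when the median of all genes was -0.74.

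Cd53, the tetraspanin of leukocytes, ranged from 1091 to 1372 scaled counts at P28 with a median of 1153, against 1216 to 2288 at P14 with a median of 1647. The ages overlapped: P14 samples 61 (1216) and 81 (1327) lay within the range of P28, whose highest value was that of sample 134. P14 samples 4 (2288), 16 (1945) and 5 (1879.65) were the highest of all. Cd53 averaged 1181 ± 105 at P28 and 1678 ± 422 at P14 (SD, n = 6 each) and fell by 0.51 ± 0.15 on the log2 scale, to 0.704 of its P14 level (adjusted p = 0.0188, edgeR). Without P14 samples 4 and 5 the log2 fold change was -0.32 ± 0.13 and no longer passed (adjusted p = 0.0543). The call was also lost with the authors' factors (-0.39, adjusted p = 0.0809) and with all 14 reference genes (-0.45, adjusted p = 0.0535). Its direction was negative under every scaling run, down to -1.18 with positive controls alone.

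Cd81, which is broadly expressed, ranged from 77415 to 116518 scaled counts at P28 with a median of 86236, against 55623 to 97926 at P14 with a median of 67879. P14 samples 4 (97926) and 5 (85116) lay inside the range of P28, and the other P14 samples, up to 72403, lay below all of it. Cd81 averaged 90699 ± 15008 at P28 and 71797 ± 16922 at P14 (SD, n = 6 each), and its log2 fold change of 0.34 ± 0.16 did not pass (adjusted p = 0.113, edgeR). Without P14 sample 4 it passed (0.45 ± 0.14, adjusted p = 0.0301). Without P14 samples 4 and 5 it was 0.55 ± 0.12 (adjusted p = 0.00356), with 90699 ± 15010 at P28 (n = 6) and 61935 ± 7800 at P14 (n = 4) and no overlap. In that comparison 43.2% of the 366 genes passed and 31.4% had no overlap. With positive controls alone Cd81 was at -0.32 ± 0.29.

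Cd82, which associates with integrins and slows the migration of tumour cells, ranged from 2262 to 4203 scaled counts at P28 with a median of 3614, against 1345 to 4259.99 at P14 with a median of 3298. P28 sample 138 (2262) stood below the other P28 samples, which began at 3419. P14 samples 5 (1345) and 4 (1743) stood below the other P14 samples, which began at 2980.1, so the ages overlapped throughout. Cd82 averaged 3471 ± 650 at P28 and 3005 ± 1222 at P14 (SD, n = 6 each), and its log2 fold change of 0.21 ± 0.26 did not pass (adjusted p = 0.599, edgeR). It was -0.11 ± 0.15 without P14 samples 4 and 5 (adjusted p = 0.598) and -0.64 ± 0.42 with positive controls alone (adjusted p = 0.195), where the median of all genes was -0.74. No direction is given for Cd82, since its sign changed without P14 samples 4 and 5.

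**Figure D2:**
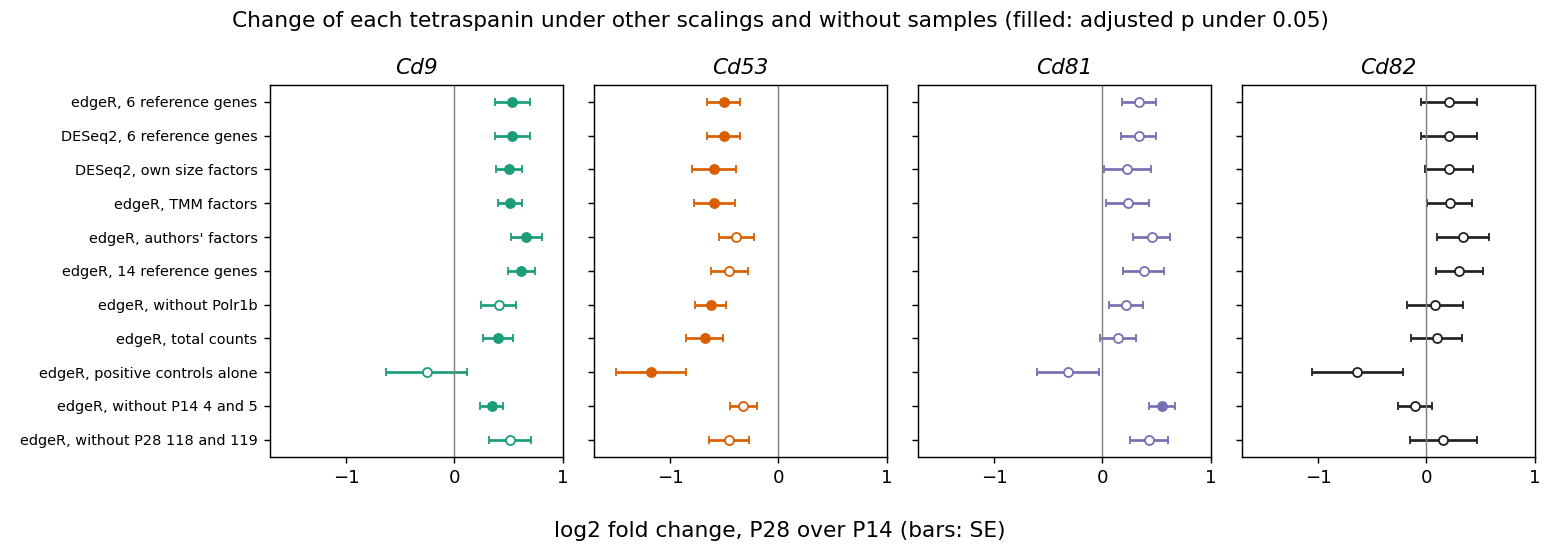
Log2 fold change of each tetraspanin, P28 over P14 (horizontal axis, bars are SE), under the scalings and sample sets named at the left; filled points have an adjusted p under 0.05. Cd53 lies below 0 in every row, while Cd9, Cd81 and Cd82 fall below 0 with positive controls alone, at -0.25, -0.32 and -0.64.

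The windows around the annotated starts of Cd53, Cd9 and Cd81 are shown because Cd53 fell while Cd9 rose, and because the ratio of Cd53 to Cd81 separated the ages. They run from 250 bases before to 50 bases after each start, 5′ to 3′ on the strand of the gene, in lower case, from RefSeq on GRCm38.p6. No build is named in the labels or files used here. Capitals mark GGGCGG, the GC box bound by SP1, and GAGGAAGT, a core of PU.1, the ETS factor of myeloid cells, each searched on both strands. No match overlaps another.
Cd53, chr3:106790100-106790399, minus strand: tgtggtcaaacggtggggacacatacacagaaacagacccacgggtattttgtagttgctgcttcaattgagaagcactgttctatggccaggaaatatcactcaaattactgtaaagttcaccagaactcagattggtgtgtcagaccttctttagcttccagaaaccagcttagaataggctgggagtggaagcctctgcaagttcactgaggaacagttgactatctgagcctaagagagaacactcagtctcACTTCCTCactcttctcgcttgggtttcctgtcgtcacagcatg
Cd9, chr6:125494711-125495010, minus strand: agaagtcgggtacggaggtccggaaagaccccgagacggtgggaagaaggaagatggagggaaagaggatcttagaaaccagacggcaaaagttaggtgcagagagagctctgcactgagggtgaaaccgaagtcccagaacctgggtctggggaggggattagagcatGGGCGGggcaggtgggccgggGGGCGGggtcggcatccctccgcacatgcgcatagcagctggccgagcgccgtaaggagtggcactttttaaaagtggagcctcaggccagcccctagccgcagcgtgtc
Cd81, chr7:143052500-143052799, plus strand: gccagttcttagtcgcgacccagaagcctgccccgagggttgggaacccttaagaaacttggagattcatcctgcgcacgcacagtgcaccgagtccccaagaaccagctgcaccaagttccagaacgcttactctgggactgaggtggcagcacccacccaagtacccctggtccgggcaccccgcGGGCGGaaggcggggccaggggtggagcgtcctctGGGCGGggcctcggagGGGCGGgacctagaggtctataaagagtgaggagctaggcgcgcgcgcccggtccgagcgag
The window of Cd53 held 1 copy of GAGGAAGT, in the opposite orientation, whose first printed base is base 7 after the start, and no GGGCGG. The windows of Cd9 and Cd81 held 2 and 3 copies of GGGCGG and no GAGGAAGT. The G and C content was 46.3% for Cd53, 61.3% for Cd9 and 65.7% for Cd81. Among 32851 windows of the same length, 35.7% held GGGCGG and 3.20% held GAGGAAGT. Cd82 has 4 annotated windows: GGGCGG occurred in 2 of them and GAGGAAGT in 1. These letters are a description of the sequence and were not measured as bound.

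A ratio of 2 genes counted in the same lane needs no scale factor, so the ratios show whether the tetraspanins changed by unequal amounts whatever the scaling. Each of the 6 ratios was tested by exact permutation, two-sided, over 924 arrangements of the samples, where 0.00216 is the smallest p, and their p-values were adjusted together. The log2 ratio of Cd53 to Cd81 ranged from -6.57 to -6.04 at P28 with a median of -6.17, against -5.68 to -4.84 at P14 with a median of -5.52. Every P28 sample lay below every P14 sample, P14 samples 4 (-5.42) and 5 (-5.50) included. In other terms, the Cd53 count was 1.05% to 1.51% of the Cd81 count at P28 and 1.95% to 3.50% at P14, where both percentages hold for these probes only. The difference, P28 minus P14, was -0.83 ± 0.15 (SE; exact permutation p = 0.00216, the smallest possible; adjusted p = 0.0130). It was -0.85 ± 0.21 without P14 samples 4 and 5 (adjusted p = 0.0143, exact permutation test).

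The log2 ratio of Cd9 to Cd53 ranged from 0.54 to 1.16 at P28 with a median of 0.87, against -1.01 to 0.62 at P14 with a median of -0.048. The ages overlapped only between P14 sample 61 (0.62) and P28 samples 134 (0.54) and 138 (0.61). The difference was 1.04 ± 0.29 (exact permutation p = 0.00649, adjusted p = 0.0195). It was 0.64 ± 0.20 without P14 samples 4 and 5 (adjusted p = 0.0381) and 0.96 ± 0.31 without P28 samples 118 and 119, where it no longer passed (adjusted p = 0.100, exact permutation tests).

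The ratio of Cd9 to Cd82 did not pass with all samples (0.26 ± 0.16, adjusted p = 0.175, exact permutation test). Without P14 samples 4 and 5 it was 0.46 ± 0.11 (adjusted p = 0.0143), with P28 samples from -0.85 to -0.28 and the remaining P14 samples from -1.30 to -0.999. Cd53 over Cd82 (-0.78 ± 0.42, adjusted p = 0.175), Cd9 over Cd81 (0.22 ± 0.32, adjusted p = 0.621) and Cd81 over Cd82 (0.05 ± 0.46, adjusted p = 0.931) did not pass the exact permutation test. Their SE leave room for differences of the size seen in the other ratios.

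**Figure D3:**
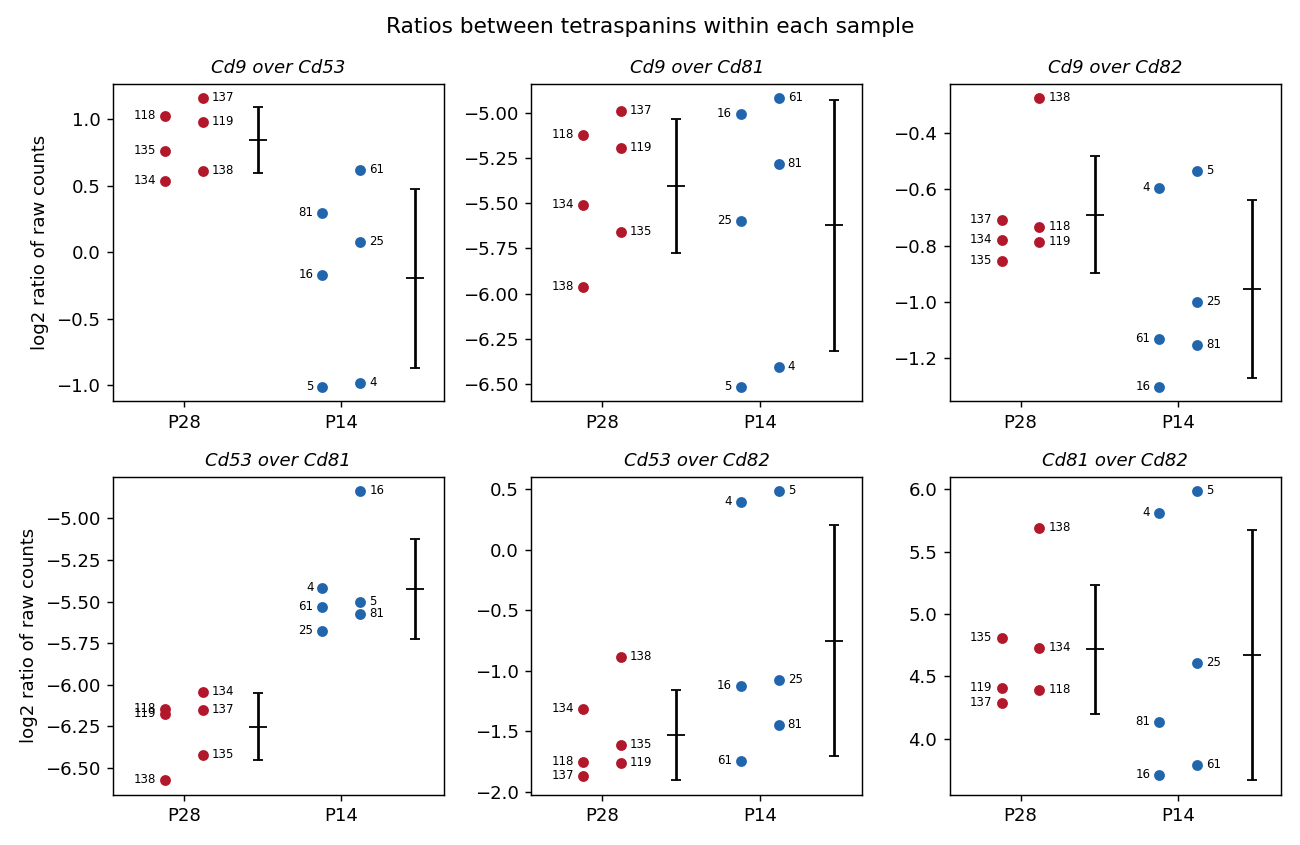
Log2 ratio of raw counts (vertical axes) of each pair of tetraspanins in each sample at P28 (red) and P14 (blue), with sample numbers and, in black, the mean and SD of 6 samples. For Cd53 over Cd81, all P28 samples (-6.57 to -6.04) lie below all P14 samples (-5.68 to -4.84).

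In 9 of 12 samples, Cd9 and Cd82 lay on one side of the means of their age and Cd81 on the other. The exceptions were P28 samples 134 and 135 and P14 sample 25. The rate of such a pattern among other genes was not counted, so it is not read as particular to tetraspanins. In P14 sample 5 the deviation from the age mean on the log2 scale was -0.62 for Cd9 and -1.04 for Cd82, against 0.28 for Cd81 and 0.20 for Cd53. P14 sample 4 had -0.30 for Cd9 and -0.66 for Cd82, against 0.48 for both Cd81 and Cd53. At P28, sample 138 had -0.18 for Cd9 and -0.59 for Cd82, against 0.38 for Cd81. Conversely, P14 sample 61 had 0.39 for Cd9 and 0.57 for Cd82, against -0.32 for Cd81. P14 samples 4 and 5 had low totals (772723 and 356398), but P28 sample 138 did not (1266925), and the part of depth in this pattern was not tested.

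**Figure D4:**
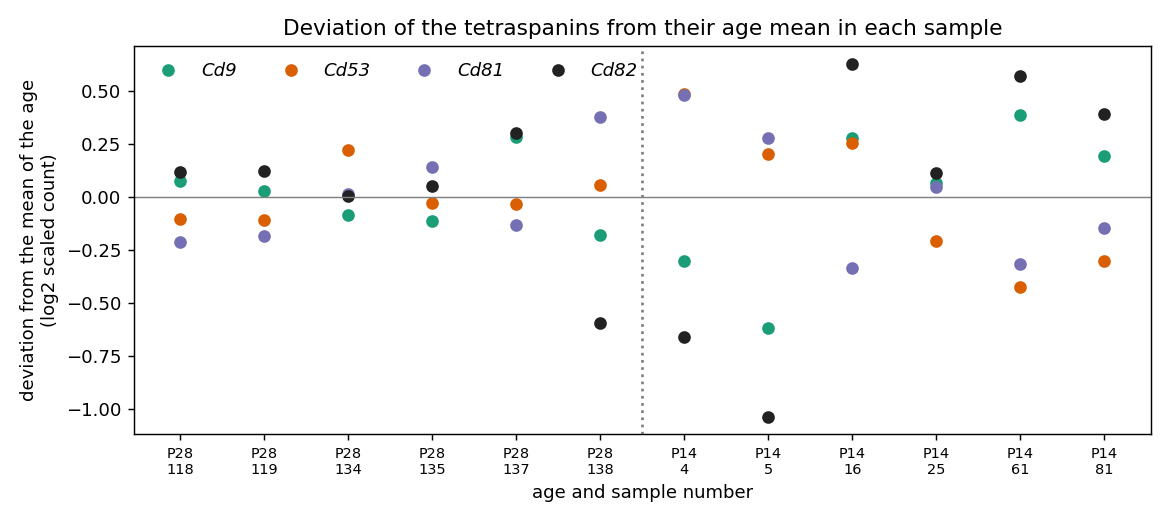
Deviation of each tetraspanin from the mean of its age (vertical axis, log2 scaled count) in the 6 samples of P28 (left) and the 6 of P14 (right). Cd82 reaches -1.04 in P14 sample 5 and -0.59 in P28 sample 138, where Cd81 lies at 0.28 and 0.38.

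The genes most like each tetraspanin were found among the other 362 genes by Pearson's r over the 12 samples, once on log2 scaled counts and once on deviations from the age means. The points share lanes and scale factors, and P14 samples 4 and 5 lie far from the rest, so r is a description. For Cd82 they were C1qa (0.99), Tyrobp (0.98) and Entpd1 (0.98) on levels, and Fcgr2b, C1qa and Tyrobp (0.99 each) on deviations. C1qa encodes a chain of complement C1q, Tyrobp the signalling adaptor DAP12, Entpd1 the ectonucleotidase CD39 and Fcgr2b the inhibitory Fc receptor. For Cd9 they were Ncf4 (0.95), a subunit of the phagocyte oxidase, Cd83 (0.95) and the cytokine gene Il1b (0.95) on levels. On deviations they were the transcription factor Nfatc3 (0.98), Tyrobp (0.96) and the immunoproteasome subunit Psmb10 (0.96). For Cd81 they were Clec5a (0.88), Csf3r (0.86) and Tnfsf12 (0.81) on levels, and Csf2rb (0.99), Itgam (0.97) and Ctnnb1 (0.95) on deviations. Csf2rb is the common beta chain of the GM-CSF, IL-3 and IL-5 receptors, Csf3r is the G-CSF receptor, Itgam the integrin chain CD11b and Ctnnb1 beta-catenin. For Cd53 they were the interferon-induced GTPase Irgm1 (0.88), the adhesion receptor Cd97 (0.88) and Litaf (0.88) on levels. On deviations they were the chemokine Ccl12 (0.90), the cytokine Il1a (0.81) and the adaptor Traf5 (0.77). Without P14 samples 4 and 5, the r on deviations was 0.97 to 0.98 for the genes named with Cd82, 0.92 to 0.98 for those with Cd81, 0.82 to 0.89 for those with Cd9 and 0.44 to 0.79 for those with Cd53.

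Genes of the proteins that tetraspanins gather were read from lists of known partners. The integrins bound by CD9, CD81 and CD82 include those with the beta 1 chain. Of 9 present integrin genes, 2 rose, 2 fell and 5 did not pass, where 30.6% of all genes passed, with a median log2 fold change of -0.29 against 0.0026 for all genes. Itgb1, the beta 1 chain itself, fell to 6928 ± 499 scaled counts at P28, against 10327 ± 2406 at P14 (log2 fold change -0.58 ± 0.15, adjusted p = 0.00812, edgeR). Like Cd9 and Cd82, Itgb1 was lowest within P14 in samples 5 (6633) and 4 (8174). Itga6, the alpha chain of the laminin receptor, had 10188 ± 386 at P28 and 12487 ± 3083 at P14 and did not pass (-0.29 ± 0.15, adjusted p = 0.144). It was -0.50 without P14 samples 4 and 5 (adjusted p = 9.34e-05), where 2 integrin genes were higher and 4 lower and 43.2% of all genes passed. Itgam, the CD11b chain of the microglial integrin, did not pass (-0.37 ± 0.17, adjusted p = 0.113).

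Itgax, the CD11c chain, rose to 174 ± 24.8 at P28, against 45.2 ± 17.9 at P14 (1.91 ± 0.22, adjusted p = 1.34e-05). Itga5, a chain of the fibronectin receptor, rose as well (0.40 ± 0.10, adjusted p = 0.00814), but was at -0.35 with positive controls alone. Itgal, the CD11a chain, was above background in 0 of 6 samples at P28 and in 6 of 6 at P14, at least 1.56-fold lower (adjusted p = 0.000254, edgeR).

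MHC class II molecules are found in tetraspanin patches of antigen-presenting cells. Of 9 class II genes counted, H2-Aa, H2-Eb1 and H2-DMb2 were not called present. Of the 6 present, 3 rose, against 16.7% of all genes, and 3 did not pass. Their median log2 fold change was 0.45, against 0.0026 for all genes. H2-Ob (1.42 ± 0.16), H2-DMa (1.12 ± 0.20) and H2-Ab1 (0.46 ± 0.11, and -0.25 with positive controls alone) rose. Of the class I genes, B2m fell (-0.26 ± 0.08, adjusted p = 0.0263) and H2-K1 did not pass (-0.11 ± 0.15). Among 6 present co-receptors and adhesion partners, Cd5 rose (adjusted p = 0.000822, edgeR), as did 16.7% of all genes. It had 44.8 ± 10.2 scaled counts at P28 and 20.7 ± 5.17 at P14, where it was above background in 3 of 6 samples. The other 5 did not pass, among them Ptprc (0.36 ± 0.17) and Icam1 (0.14 ± 0.10). Some tetraspanins steer ADAM proteases, whose substrates include TNF and Notch. Of 3 present genes, Tnf rose (0.88 ± 0.17), as did 16.7% of all genes. Notch1 (0.58 ± 0.21) and Notch2 (0.24 ± 0.10) did not pass.

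**Figure D5:**
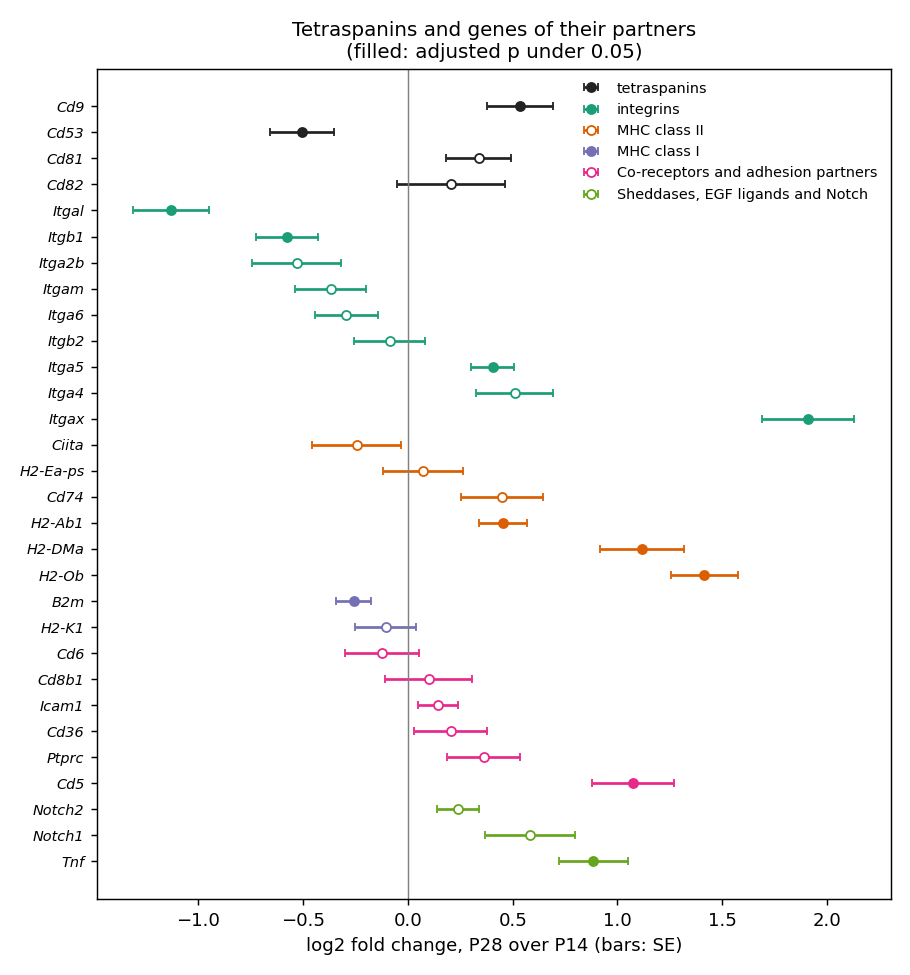
Log2 fold change, P28 over P14 (horizontal axis, bars are SE), of the tetraspanins and of the present genes of their partner lists; filled points have an adjusted p under 0.05. Itgb1 (-0.58) lies below 0 with Cd53 (-0.51), and H2-Ob (1.42), H2-DMa (1.12) and Itgax (1.91) lie above Cd9 (0.54).

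The label of the cells was set against their markers, and the calls in each marker list are read beside those of all 366 genes. Of these, 30.6% passed, with 16.7% higher at P28 and 13.9% lower. The 8 microglia and macrophage markers held by the table were all present, with a summed level of 208000 to 244800 scaled counts at P28 and 198700 to 232800 at P14. Most of that sum was Csf1r and Itgam, whose means leaned opposite ways. Csf1r had 100769 ± 4361 at P28 and 82170 ± 23448 at P14, and Itgam 58776 ± 13045 and 75929 ± 18279 (SD, n = 6 each). Within that list Trem2 rose (0.71 ± 0.13, adjusted p = 0.00069, edgeR, but -0.065 with positive controls alone). Emr1, which encodes F4/80, fell (-0.72 ± 0.082, adjusted p = 1.04e-05, edgeR). The other 6 did not pass, where 30.6% of all genes passed. Oligodendrocytes are rich in CD9, CD81 and CD82, and their only marker held here, Mbp, rose (1.36 ± 0.43, adjusted p = 0.0241, edgeR), with 1091 and 724 scaled counts in P28 samples 118 and 119, 189 to 325 in the other P28 samples and 126 to 272 at P14. Cd9 was at 2224 and 2156 in those samples, below P28 sample 137 (2572) and above the other 9 samples. Cd82, at 3696 and 3715, was likewise below sample 137 (4203) and above the other P28 samples. Without P28 samples 118 and 119, the log2 fold change of Cd9 was 0.51 ± 0.19, about as large as with all samples (0.54), but no longer passed (adjusted p = 0.0679, edgeR). Cd53 no longer passed either (-0.45 ± 0.18, adjusted p = 0.0897). Of 6 neutrophil genes, S100a8, S100a9 and Camp were not called present, and Ltf and Csf3r did not pass. Cxcr2 fell (adjusted p = 1.45e-06, edgeR) and was above background in 0 of 6 samples at P28 and 6 of 6 at P14. The summed level of all 6 was 4190.0 to 8272 at P28 and 2875 to 8706 at P14, and nearly all of it was Csf3r, a gene named above with Cd81, at 8177 in P28 sample 138, 6598 in P14 sample 4 and 8602 in P14 sample 5. Of 4 endothelial and mural genes, all present, Cd34 (2.54) and Pdgfrb (0.41, and -0.35 with positive controls alone) rose and Cdh5 fell (-0.63). Pecam1 did not pass (-0.43 ± 0.21), where 30.6% of all genes passed. Their summed level was 6179 to 14620.0 at P28 and 3063 to 4850.0 at P14. Most of that sum at P28 was Cd34, which averaged 6972 ± 2568 there and 1198 ± 373 at P14 (SD, n = 6 each). Pecam1 averaged 1385 ± 345 at P28 and 1862 ± 585 at P14. Of 7 T cell genes, Cd3d, Cd3e, Cd4, Cd8a and Cd247 were not called present, and the sum was 144 to 195 at P28 and 192 to 225 at P14; Cd5 rose, as above, and Lck fell (-1.01 ± 0.15). The 3 NK cell genes summed to 184 to 289.9 at P28 and 51.9 to 168 at P14, and went different ways: Klrd1 rose (adjusted p = 3.49e-07, edgeR), Gzma fell (adjusted p = 0.00818) and Prf1 did not pass (0.65 ± 0.31). Klrd1 was above background in 6 of 6 samples at P28 and 2 of 6 at P14, and Gzma in 0 of 6 at P28 and 5 of 6 at P14. The part of these cells in the changes of the tetraspanins was not tested.

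The authors' deposited table gives a fold of P28 over P14 of 1.59 for Cd9 (p = 0.0004), 0.76 for Cd53 (p = 0.0734), 1.37 for Cd81 (p = 0.0353) and 1.27 for Cd82 (p = 0.1687), with p-values not adjusted over genes. The authors' deposited table thus has the same directions as the fit above for Cd9, Cd53 and Cd81. Cd9 and Cd81 are under an unadjusted 0.05 there, and Cd53 is not. In the fit above, the unadjusted p-values were 0.00444 for Cd9, 0.00489 for Cd53, 0.0478 for Cd81 and 0.435 for Cd82 (edgeR). On that unadjusted measure Cd9 and Cd81 are under 0.05 in both, and Cd53 only in the fit above.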

How the data were processed

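The deposited raw table holds whole-number counts of barcodes per probe, not scaled by the authors, for 545 immune genes and 14 reference genes, with 8 negative-control and 6 positive-control probes. The second deposited table holds values that the authors scaled to positive controls and reference genes per the labels, used as a score, with a ratio of age means (fold) and a p-value per gene per the file headers. Its columns were constant multiples of the raw counts within 0.327% for genes with at least 100 counts. Genome build and counting software are not named there. The tables had 0 sample columns that could not be matched.

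Titles gave the age group and the number of each sample. The test, run on all 366 present genes, was the quasi-likelihood F test of edgeR 4.0.16 under R 4.3.3 on raw counts, offset by the geometric mean of 6 reference genes, with age as the only term and an FDR of 0.05. Scaled counts are raw counts over that mean, set to a geometric mean of 1 over the samples. Ratios used exact permutation tests. Alternatives were DESeq2 1.42.0, limma 3.58.1 with pseudocounts of 1 and 10, other scalings and filters, and samples left out. No pair of samples agreed within counting noise (chi-square per degree of freedom of at least 8.75). Scripts were tested on simulated data. Named are the 4 tetraspanins, partner genes past the threshold, the 2 most abundant present genes of each partner list and the 3 genes most like each tetraspanin. The members, lists and tests were chosen with earlier results of these data known. No other tetraspanin gene from a list of 11 was found in the table. The results of 2 gene lists are not reported here.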

Additional observations from a re-analysis of the deposited data

Results flagged for a closer look

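Over 20 sets of 6 samples (4 genes and 6 ratios at each age), 3 values lay far from the rest of their age by Dixon's test, where chance flags about 1 in 20. The sets share genes and samples, so they are not independent. P28 sample 138 had a log2 ratio of Cd9 to Cd82 of -0.28, against -0.85 to -0.71 in the other P28 samples, and a log2 ratio of Cd81 to Cd82 of 5.69, against 4.29 to 4.81. Both ratios hold Cd82, which in that sample was at -0.59 from its age mean on the log2 scale. P14 sample 16 had a log2 ratio of Cd53 to Cd81 of -4.84, against -5.68 to -5.42 in the other P14 samples. Without P14 sample 16, the difference of that ratio between the ages was -0.71 ± 0.092 (SE; adjusted p = 0.0130, exact permutation test).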

How the results depend on the processing

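No paired analysis was possible because the sample numbers of the ages do not overlap. Lanes and batches are not named in the labels or files. Cd9 kept its call in 27 of 30 alternatives, Cd53 in 24 of 30, and Cd53 over Cd81 in all 17 of its own that hold a test. Cd9 fell short without Polr1b (0.41), without P28 samples 118 and 119 (0.51), and was at -0.25 with positive controls alone. Cd53 fell short with the authors' factors (-0.39), all 14 reference genes (-0.45), limma on the authors' values (-0.35), without P14 samples 4 and 5 (-0.32) and without P28 samples 118 and 119 (-0.45). Cd81 was at -0.32 with positive controls alone and passed without P14 samples 4 and 5 (0.55). Cd82 was at -0.64 with positive controls alone and -0.11 without P14 samples 4 and 5. Without those samples, Cd9 over Cd81 was -0.20 and Cd9 over Cd82 passed (0.46). Cd9 over Cd53 did not pass without P28 samples 118 and 119 (0.96). Without P14 samples 4 and 5 and P28 sample 138, a set chosen after seeing the data, Cd53 was -0.33 (adjusted p = 0.0559), Cd81 0.47 (adjusted p = 0.00193), Cd82 -0.0088, Cd9 over Cd81 -0.092 and Cd9 over Cd82 0.37 (adjusted p = 0.0238, edgeR for genes and exact permutation tests for ratios). The cause of these changes was not tested. With each sample left out in turn, values were 0.44 to 0.62 for Cd9, -0.58 to -0.40 for Cd53, 0.25 to 0.45 for Cd81, 0.056 to 0.33 for Cd82, 0.88 to 1.21 for Cd9 over Cd53, 0.037 to 0.36 for Cd9 over Cd81, 0.18 to 0.35 for Cd9 over Cd82, -0.88 to -0.71 for Cd53 over Cd81, -0.98 to -0.53 for Cd53 over Cd82 and -0.15 to 0.31 for Cd81 over Cd82. The last was below 0 without P14 sample 16 (-0.15), 61 (-0.13) or 81 (-0.061) or P28 sample 138 (-0.15). Genes called numbered 86 (of 276 tested) to 163 (of 366) over all alternatives, against 112 of 366.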
